A study of Caenorhabditis elegans with 2 samples.

Results

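The genes described here are the Hox genes of the nematode Caenorhabditis elegans and the factors they work with: ceh-13, lin-39, mab-5, egl-5, nob-1, php-3, pal-1, vab-7, unc-62 and ceh-20. They were chosen by name, as 10 of 19973 nuclear protein-coding genes, and all 10 were found in the annotation. Every TBX-2 peak whose summit lay from 5 kb upstream of a gene to 2 kb downstream of it was taken. Sites bound by TBX-2, a T-box transcription factor, had been mapped by chromatin immunoprecipitation and sequencing (ChIP-seq) in strain OP159, whose genotype is unc-119(ed3) III; wgIs159. The strain carries an integrated transgene in which a GFP-FLAG tag is joined to the C-terminus of TBX-2, and an anti-GFP antibody was used to pull down the chromatin. Whole hermaphrodites at the late embryonic stage were taken 3.5 h after synchronization by bleaching, in 2 biological replicates from that 1 strain, with a control library and no second condition. The promoter that drives the tagged protein is not given in the sources used here.

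Hox genes encode homeodomain transcription factors that give cells their identity according to position along the body axis. In the worm they lie in loose pairs on chromosome III rather than in one compact cluster. Their proteins bind DNA together with homeodomain cofactors of the PBC class (Pbx in vertebrates, Extradenticle in flies) and the Meis class (Homothorax in flies), while Caudal and Even-skipped proteins are related homeodomain factors that act in posterior cells. TBX-2 is best known for its role in the pharynx.

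The authors deposited 4 peak lists on the ce11 genome build: a relaxed list with background of 25747 peaks from pooled data, 1 such list from each replicate (23800 and 23216), and an optimal set of 3053 pooled peaks that passed a threshold on irreproducibility between replicates. Each peak has a signal from the authors' peak caller, on a scale of its own in each list, so peaks are given below by rank, with rank 1 the strongest. The optimal set was the top of the pooled list, down to a signal of 81.6. The relaxed lists include background, so their weaker peaks need not be bound sites. Differences between replicates at such peaks are given as ranks only. The 3053 strongest peaks of each replicate are called its top list. Read depth is unknown, and with 1 group the values describe these replicates and carry no test. At tbx-2, the tagged gene, the strongest peak had optimal rank 20 and replicate ranks 23 and 21, and 9 optimal summits lay in its window, so the window of the tagged gene was crowded.

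Summit sequences are printed for the peaks on which the description of the Hox genes and ceh-20 turns: 3 optimal peaks upstream of genes, the nob-1 intron peak that fell just outside the optimal set, and the mab-5 upstream peak that the replicates ranked differently. Each run is ce11 forward-strand sequence reaching 50 bases to each side of the summit. Capitals mark a match on either strand to one of 7 motifs: GGTGTGA (T-box), TGATNNAT (Hox with a PBC cofactor), TGACAG (Meis), TTTATG (Caudal), GAGAGAGA (GA repeat), CTGCGTCT and GGGCGG (GC-box).
ceh-20 (chrIII:6979051-6979151): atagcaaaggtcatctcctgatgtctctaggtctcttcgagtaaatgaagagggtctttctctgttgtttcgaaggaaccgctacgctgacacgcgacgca
ceh-13 (chrIII:7554913-7555013): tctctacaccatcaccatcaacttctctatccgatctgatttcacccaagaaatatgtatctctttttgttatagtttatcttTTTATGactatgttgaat
nob-1 upstream (chrIII:12084997-12085097): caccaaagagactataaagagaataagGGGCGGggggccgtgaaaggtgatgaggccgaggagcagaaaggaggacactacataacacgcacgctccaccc
nob-1 intron (chrIII:12082147-12082247): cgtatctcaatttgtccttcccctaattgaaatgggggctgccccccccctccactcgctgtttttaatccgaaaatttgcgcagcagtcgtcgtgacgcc
mab-5 upstream (chrIII:7784388-7784488): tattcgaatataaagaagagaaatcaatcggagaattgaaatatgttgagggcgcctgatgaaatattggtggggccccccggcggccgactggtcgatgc

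An optimal TBX-2 peak lay in the windows of both cofactor genes, unc-62 and ceh-20, and of 2 of the 6 Hox genes, ceh-13 and nob-1. None lay in the windows of lin-39, mab-5, egl-5, php-3, pal-1 or vab-7. The 4 of 10 genes make 40% (95% exact binomial interval 12.2 to 73.8, over genes, which are not replicates), against 25.5% of all nuclear protein-coding genes. Among genes with windows as long as these, between 8.902 and 20.989 kb, the share was 29.8%. Both backgrounds lie inside that interval. All 4 summits lay within 1 kb of an annotated 5′ end of the gene. So 4 of the 10 genes had an optimal summit there, against 11.5% of all genes. Counting only the most upstream 5′ end of each gene left 3 of the 10, without unc-62, which has 15 annotated 5′ ends. The share of all genes under that rule is not given here, so those 3 are not read against the 11.5%. The background was not matched for the number of 5′ ends. With the top list of replicate 1 in place of the optimal set, ceh-13, unc-62 and ceh-20 held a peak (background 25.4%). With that of replicate 2, nob-1, php-3, unc-62 and ceh-20 did, nob-1 and php-3 through 1 shared peak (background 25.3%). The 2 cofactor genes therefore held a strong peak in each list, and no Hox gene held one in both replicates' top lists.

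**Figure D1:**
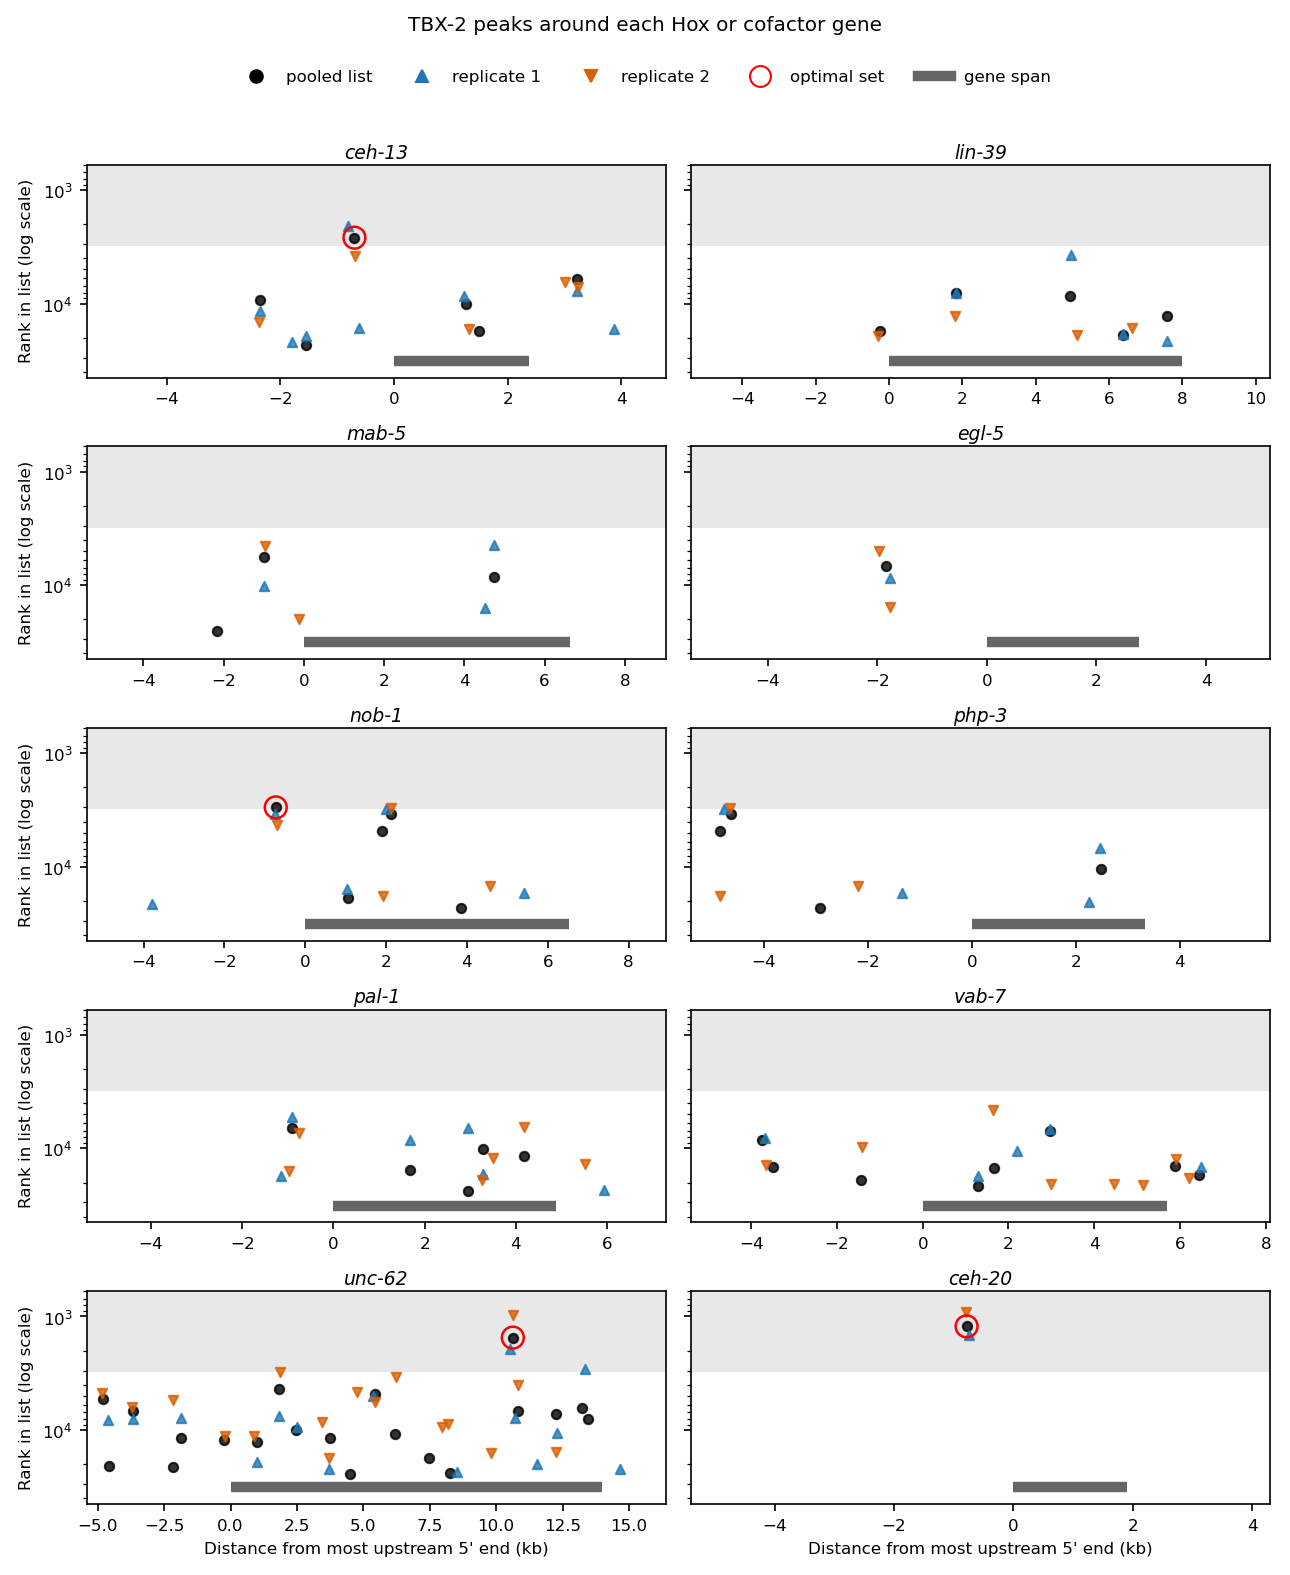
Peaks around each of the 10 genes: the x axis is the distance of the summit from the gene's most upstream 5′ end in kb and the y axis the rank within each list on a log scale, strongest at the top. The shaded band covers ranks 1 to 3053, red circles mark optimal peaks and the grey bar is the gene; ceh-20 has a single site in every list, while unc-62 has 20 pooled peaks.

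The strongest site belonged to ceh-20, which encodes the Pbx and Extradenticle homologue. Its optimal peak (chrIII:6978883-6979318, intergenic) had its summit 783 bp upstream of the gene. Its optimal rank was 1222 with a signal of 142, and its replicate ranks were 1445 with a signal of 75.8 and 910 with a signal of 73.0, each on its list's own scale. It was in both top lists, and the replicates' summits lay 37 and 15 bp from the pooled one. This was the only peak in the ceh-20 window in any of the 4 lists. The 3 protein-coding genes elsewhere whose best ranks in the optimal, replicate 1 and replicate 2 lists came nearest to those of ceh-20 were pcn-1 and wrt-5, which share 1 peak (ranks 1164, 1471 and 925), and hcp-3 (1264, 1516 and 919). Likeness was the Euclidean distance of log2 ranks over these 3 lists, 0.08 for the first pair and 0.09 for hcp-3.

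The Meis and Homothorax homologue unc-62 had the next strongest site, inside the gene. Its optimal peak (chrV:4507870-4508305) had its summit 884 bp downstream of the nearest of 15 annotated 5′ ends and 10627 bp downstream of the most upstream one. All 18 annotated transcripts span that summit, which is intronic in 17 of them and lies in a 5′ UTR exon of 1. The peak had optimal rank 1536 with a signal of 126, rank 1930 in replicate 1 with 64.3 and rank 971 in replicate 2 with 70.3, and was in both top lists. The summit of replicate 2 was 1 bp from the pooled summit and that of replicate 1 was 109 bp away. A shift of 109 bp or more in replicate 1 occurred at 182 of 3034 nuclear optimal peaks, whose median shift was 8 bp. If a replicate summit had to lie within 100 bp of the pooled one, the rank of unc-62 in replicate 1 became 7899 and ceh-20 alone was in both top lists; 71.2% of all nuclear optimal peaks were then in both.

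The window of unc-62 was the longest of the 10, over a gene of 13.989 kb, and held 20 pooled, 15 replicate 1 and 17 replicate 2 peaks. The next pooled peak ranked 4349, with 7535 in replicate 1 and 3069 in replicate 2, and lay in an intron at one of the internal 5′ ends. A replicate 1 peak of rank 2917 lay in coding sequence toward the 3′ end of the gene, nearer to the 5′ end of T28F12.1 than to one of unc-62. The 2 pooled peaks that overlapped it, of rank 6382 and 7951, overlapped no replicate 2 peak. The site at 884 bp was thus the only one of the window that both top lists held.

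At ceh-13, the labial-class Hox gene of anterior cells, the optimal peak was in the top list of replicate 1 but not in that of replicate 2. Its optimal peak (chrIII:7554745-7555180, intergenic) had its summit 697 bp upstream of the gene and ranked 2629 with a signal of 89.9. Replicate 1 placed it at rank 2067 with a signal of 61.6, inside its top list, and replicate 2 at rank 3784 with 31.7, outside its top list. The larger rank was 1.83 times the smaller. That fold was larger at unc-62 (1.99) and smaller at ceh-20 (1.59) and nob-1 (1.25). Its quartiles over all nuclear optimal peaks were 1.19 and 1.88. At ceh-13 the summit of replicate 1 lay 118 bp from the pooled one and that of replicate 2 lay 14 bp from it. A shift of 118 bp or more in replicate 1 occurred at 5.24% of nuclear optimal peaks. The next pooled peak, downstream of the gene, ranked 6134, with 7746 in replicate 1 and 6435 in replicate 2.

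At nob-1, a posterior Hox gene of the Abdominal-B group, the optimal peak was in neither top list. It lay at chrIII:12084829-12085264, between genes, with its summit 731 bp upstream of nob-1. It ranked 2999 of 3053 with a signal of 82.5, 3418 in replicate 1 with 46.4 and 4287 in replicate 2 with 29.6. The replicates' summits lay 23 and 22 bp from the pooled one. A second site, in an intron of nob-1 (chrIII:12081979-12082414), had a pooled signal of 76.3, below the lowest optimal signal of 81.6. This intron peak ranked 3402 in the pooled list, 3082 in replicate 1 and 3047 in replicate 2, on either side of the 3053 that end a top list. The replicates' summits there lay 121 bp apart. Each replicate thus ranked the intron site above the upstream site, and the pooled list ranked them the other way. A pooled peak of rank 4877 overlapped the intron site and shared its replicate peaks.

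The window of php-3, the neighbouring Abdominal-B group gene that lies 0.236 kb from nob-1, held that intron site as its strongest peak, 4641 bp upstream of php-3. Its nearest 5′ end was that of nob-1. After the pooled peak of rank 4877 at the same place, the next pooled peak of php-3 ranked 10508, in one of its own introns, with 6896 in replicate 1 and none overlapping in replicate 2.

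The central Hox genes lin-39 and mab-5 had no optimal peak, and their strongest peaks lay at different sites in the replicates. For lin-39, which acts in midbody cells and the vulval precursors, the strongest replicate 1 peak ranked 3704 in an intron and the strongest replicate 2 peak ranked 12876 at an internal 5′ end, 3169 bp away. The pooled peaks at these sites ranked 8589 and 8121. The intron site ranked 18878 in replicate 2, and the site at the internal 5′ end ranked 7996 in replicate 1. The deposited −log10 q-value was 0.68 at the pooled peak of rank 8121, against 2.98 at all optimal peaks. It was 1.92 at the strongest replicate 1 peak and 0.26 at the strongest replicate 2 peak. For mab-5, an Antennapedia-like gene needed for posterior neuroblast migration, the strongest pooled peak ranked 5671 at 984 bp upstream, with 10267 in replicate 1 and 4561 in replicate 2. The strongest replicate 1 peak, of rank 4401, lay in an intron, 5718 bp from the strongest replicate 2 peak, and the pooled peak on it (8421) overlapped no replicate 2 peak. The ranks of the 2 replicates at mab-5 were therefore close, 4401 and 4561, but belonged to separate sites.

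At egl-5, an Abdominal-B group gene of the tail, the window held 1 pooled peak, 1836 bp upstream, with rank 6714. Its rank was 8619 in replicate 1 and 4959 in replicate 2, and those peaks overlapped with summits 189 bp apart. The Caudal homologue pal-1, which specifies posterior embryonic lineages, had its strongest pooled peak at rank 6610, 915 bp upstream, inside the coding sequence of the neighbouring gene C38D4.7. That peak ranked 5312 in replicate 1 and 7331 in replicate 2, whose strongest peak in the window was another, in a pal-1 intron, with rank 6421. At the Even-skipped homologue vab-7, known for posterior muscle and motor neuron identity, the strongest pooled peak ranked 7091 in an intron, with 6703 in replicate 1 and 20739 in replicate 2. Replicate 2 instead had its strongest vab-7 peak, of rank 4611, at another place in an intron. The replicate 1 peak that overlapped it ranked 17366 and had its summit in vab-7 coding sequence. The −log10 q-value in replicate 2 was 1.72 at rank 4611 and 0.05 at rank 20739. In replicate 1 it was 0.81 at rank 6703 and 0.10 at rank 17366.

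Counted by gene, the strongest peaks of the 2 replicates overlapped at 6 of 10 genes: ceh-13, egl-5, nob-1, php-3, unc-62 and ceh-20. Of these, nob-1 and php-3 counted through the same replicate peaks, in the nob-1 intron. Over the 13314 protein-coding genes with a peak in both replicates the share was 62.3%. Among the 6 genes with no optimal summit they overlapped at egl-5 and php-3 alone, against 43.9% of 8212 such genes. By this overlap of 1 bp or more, the counts of these 10 genes are close to the background. The strongest replicate summits lay within 100 bp of each other at ceh-20 alone, 52 bp apart, and no background was computed for that rule. At the 4 optimal peaks the median summit shift in replicate 1 was 73 bp, against 8 bp over all nuclear optimal peaks. In replicate 2 it was 14.5 bp against 12 bp. In the pooled list, the order of the genes by strongest peak was ceh-20, unc-62, ceh-13, nob-1, php-3, mab-5, pal-1, egl-5, vab-7 and lin-39. Of all protein-coding genes, 12.8% had a peak at least as strong as that of ceh-20 and 46.2% one at least as strong as that of lin-39. The order was not the same in the replicates. In replicate 2, ceh-13 (3784) came behind nob-1 and php-3 (3047) and lin-39 came last, whereas in replicate 1 lin-39 came ahead of mab-5, pal-1, vab-7 and egl-5.

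**Figure D2:**
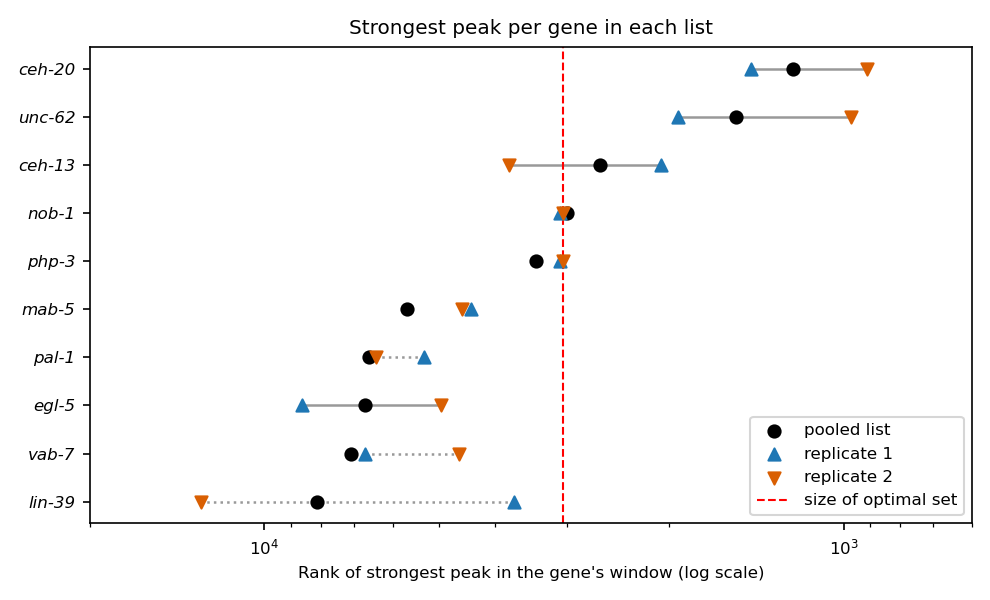
Rank of the strongest peak in each gene's window, on a log scale with stronger peaks to the right, in the pooled list (circle), replicate 1 (upward triangle) and replicate 2 (downward triangle). Solid lines join replicate peaks that overlap and dotted lines those at separate sites; the dashed line is rank 3053, and only ceh-20 and unc-62 lie clearly right of it in all 3 lists.

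The 4 optimal peaks split by rank. By overlap, those of ceh-20 and unc-62 were in both top lists, that of ceh-13 in 1 and that of nob-1 in neither. That is 50% in both (95% exact binomial interval 6.76 to 93.2), against 76.2% of the 3034 nuclear optimal peaks and 62.3% of the 1777 within the ranks these 4 span. Each was then set beside the 100 nuclear optimal peaks on either side of it in rank, or as many as there were. Around ceh-20 200 of 200 neighbours were in both top lists, and around unc-62 192 of 200. Around ceh-13 the share was 24.5%, and around nob-1 6.49% of 154, with 20.8% in neither. The median fold between replicate ranks was 1.71 for the 4 peaks and 1.44 for all nuclear optimal peaks (quartiles 1.19 and 1.88). The ceh-13 and nob-1 peaks thus lay in a stretch of the optimal set where most peaks were not in both top lists. A top list ends at the size of the optimal set, so peaks late in the set lie close to that limit. In 10 bins by rank, the median fold between replicate ranks was 1.40 in the first and 1.53 in the last. The share in both top lists is therefore not a measure of how far apart the replicate ranks lay.

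**Figure D3:**
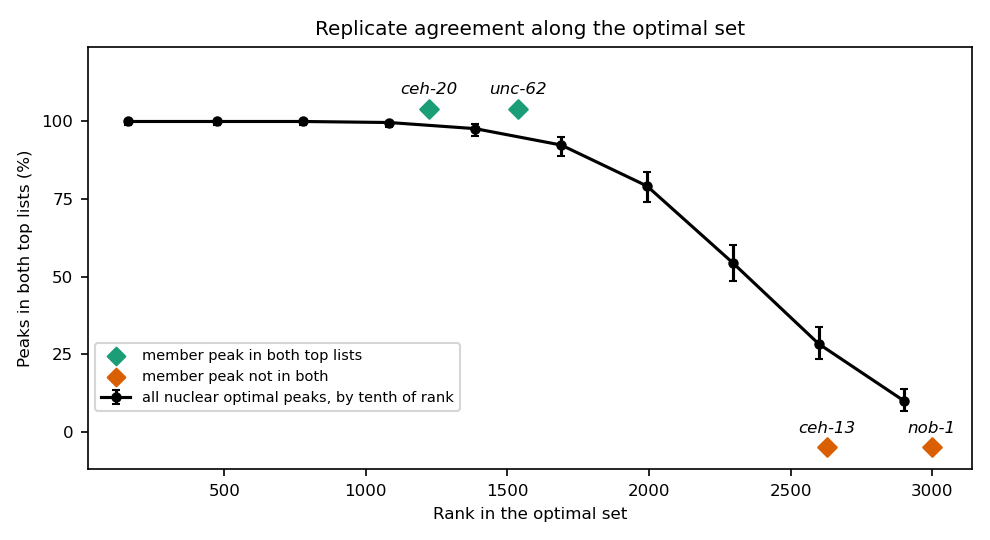
Share of nuclear optimal peaks in the top lists of both replicates (y axis, percent) in 10 equal bins of the optimal set by rank (x axis), with 95% exact binomial intervals. Diamonds mark the ranks of the 4 peaks, green above the line for those in both top lists and orange at the bottom for those that were not. The share runs from 100% in the first bin to 9.90% in the last. The median fold between replicate ranks, not drawn, was 1.40 in the first bin and 1.53 in the last.

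Pooled peaks were dense over the merged windows of these genes, but not around each gene. The number per window ran from 1 at ceh-20 (8.902 kb) and egl-5 (9.768 kb) and 3 at mab-5 (13.62 kb) to 8 at vab-7 (12.698 kb) and 20 at unc-62 (20.989 kb). Their windows, 119.3 kb once merged, held 55 pooled peaks, or 46.1 per 100 kb, against 26.0 over the windows of all protein-coding genes. Replicate 1 gave 41.9 against 24.0 and replicate 2 gave 41.1 against 23.5. Without unc-62, which held 20 of the 55, the pooled density was 35.6. Outside the optimal set the density of pooled peaks was 42.7 per 100 kb, and 32.5 without unc-62, against 22.9. For optimal peaks it was 3.35 per 100 kb against 3.08, and 3.05 without unc-62. Of the 55 pooled peaks 36 overlapped a peak in both replicates (65.5%), 16 in 1 and 3 in none, while over all nuclear pooled peaks 56.5% did so in both. Neighbouring pooled peaks can share a replicate peak and are then counted for each. Of the 51 outside the optimal set, 23 lay in introns, 17 between genes, 4 in 5′ UTRs, 4 in coding sequence and 3 in 3′ UTRs. No gene of the 10 lacked a pooled peak, whereas 5390 of all 19973 protein-coding genes did. The windows were not matched for length, with a median of 12.3 kb for the 10 genes and 9.03 kb for all.

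The 3 Hox pairs on chromosome III differed in how their peaks were placed. From lin-39 to ceh-13, over 29.4 kb with no protein-coding gene between them, there were 15 pooled peaks and 1 optimal peak, that of ceh-13. From mab-5 to egl-5, over 40.3 kb with cyk-7 between them, there were 10 pooled peaks and no optimal one. The strongest pooled peak of that span (5671) and the strongest of replicate 2 (4561) were the mab-5 upstream site. The strongest of replicate 1, of rank 4011, was another site, outside the windows of both genes. The span from php-3 to nob-1, 10.1 kb, held 5 pooled peaks and no optimal one, since the optimal nob-1 summit lay upstream of the pair.

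The 3 optimal summits upstream of genes lay at like distances. Those of ceh-13, nob-1 and ceh-20 lay 697, 731 and 783 bp upstream. Among the 1596 nuclear optimal summits that lay within 1 kb upstream of the nearest 5′ end the median distance was 226.5 bp (quartiles 132 and 420). The 3 sites thus lay beyond the upper quartile, a likeness noticed after their values were seen.

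None of the 4 optimal summits had the T-box site GGTGTGA within 50 bp, as was so at most summits of the set: 1.32% of all nuclear optimal summits held it, and 0.544% of the windows 500 bp to each side. Within those 50 bp the Hox and PBC motif TGATNNAT was also absent from the 4 (2.70% of all summits and 7.65% of flanks), as were the Meis motif TGACAG (3.89% and 3.31%), the GA repeat (8.70% and 0.544%) and CTGCGTCT (10.3% and 0.527%). The Caudal motif TTTATG occurred at ceh-13, 35.5 bp from the summit, against 4.35% of all summits and 9.56% of flanks. The GC-box GGGCGG occurred at the upstream nob-1 peak, 20.5 bp from the summit, against 7.81% and 1.55%. Neither match overlapped another motif. Over the whole peak, whose median width was 436 bp, more motifs were present, though still no T-box site (4.25% of nuclear optimal peaks held one). TGATNNAT occurred at unc-62 and ceh-13 (19.1% of peaks), TGACAG at ceh-13 (12.7%), and TTTATG at unc-62, ceh-13 and nob-1 (24.8%). The GA repeat occurred at unc-62 and ceh-13 (20.5%), CTGCGTCT at ceh-20 (18.9%), and GGGCGG at ceh-13 and nob-1 (17.7%). The ceh-13 window had a GC content of 31.7%, low beside the median of 49.5% over all summits (quartiles 44.6 and 53.5). The nob-1 window had 55.4%, unc-62 50.5% and ceh-20 48.5%.

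Genes of the surrounding pathway were listed by known role, with earlier results of these data known. Of 20 regulators of Hox expression, among them chromatin factors that maintain Hox states, 13 had an optimal summit in the window (65%), against the background of 25.5%. That background is not matched for length: regulator windows ran from 9.186 to 31.426 kb, and the median over all genes was 9.027 kb. In 12 of the 13 an optimal peak was in both top lists, and in 12 an optimal summit had the gene's own 5′ end nearest. The exception to both was lin-22, whose only optimal summit lay nearest to vrp-1. The 4 strongest were at set-2, a histone methyltransferase of the COMPASS complex (rank 209, signal 294, 268 bp upstream), sor-3, a repressor of Hox genes (365, 244, 271 bp), lin-59, an ASH1-like factor that maintains Hox expression (589, 204, 514 bp) and ash-2, a COMPASS subunit (620, 199, 133 bp). Each of these 4 ranked above every site of the 10 Hox and cofactor genes in the pooled list and in both replicates. Within 1 kb of a 5′ end, 10 of the 20 had an optimal summit, against 11.5% of all genes.

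Of 16 genes downstream of Hox, Caudal or PBC factors, 3 had an optimal summit (18.8%), none of them within 1 kb of a 5′ end. They were nhr-25, a nuclear receptor of the epidermis (rank 1080, with 1214 in replicate 1 and 996 in replicate 2), scrt-1, a Scratch-type zinc finger factor (1554, with 723 and 6889), and egl-18, a GATA factor of the seam cells (2009, with 2811 and 1526). Of 3 other PBC and Meis class genes 1 did, the Pbx homologue ceh-40, with rank 1983 and a summit 133 bp upstream, 1744 in replicate 1 and 3066 in replicate 2, just outside the top list of the latter. The remaining genes of that class, psa-3 and ceh-60, had none, and ceh-60 had no pooled peak in its window. Over all 39 the count was 17 (43.6%). In the replicates' top lists, 4 and 5 of the 16 downstream genes held a peak, near the backgrounds of 25.4% and 25.3%, and 12 and 13 of the 20 regulators did. The downstream count was thus near the background and the regulators' count above it. As the lists were made with earlier results known, this is a description, and the difference between the lists was not tested.

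**Figure D4:**
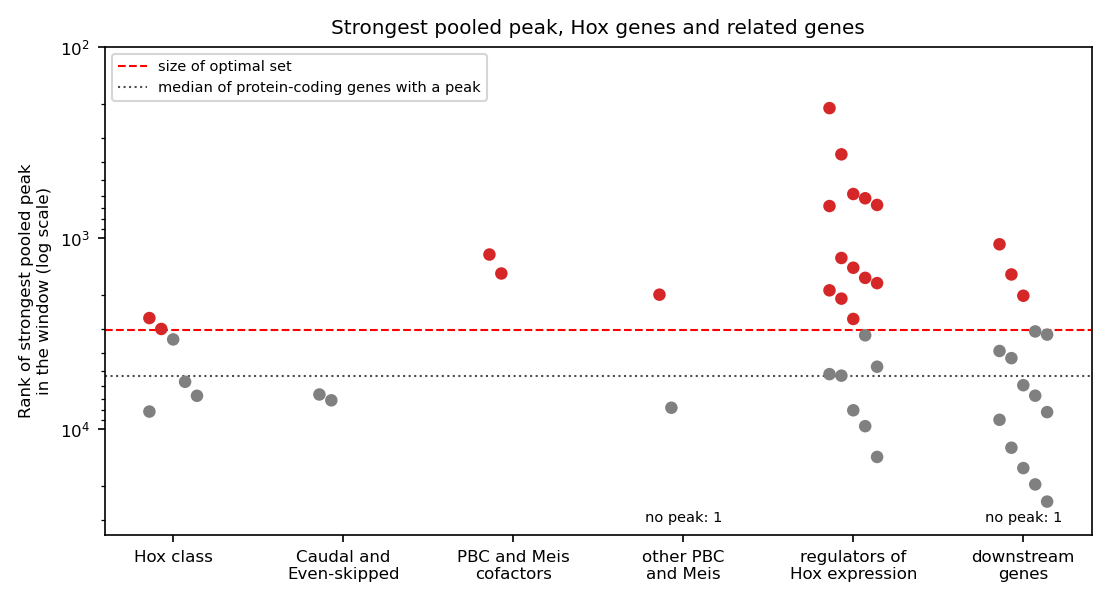
Rank of the strongest pooled peak in each gene's window (log scale, strongest at the top) for the 6 Hox, 2 Caudal and Even-skipped and 2 cofactor genes and for 39 related genes in 3 lists. Each dot is a gene, red where the peak is in the optimal set; the dashed line is rank 3053 and the dotted line the median of 5268 over protein-coding genes with a peak, and 13 of 20 regulators lie in the optimal set.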

How the data were processed

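Peak lists of TBX-2 ChIP-seq in 1 group of 2 biological replicates were used on the ce11 build. Per the deposited file lists, relaxed peaks were called against a control library, once per replicate and once on pooled alignments, and the optimal set is pooled peaks past a threshold on the irreproducible discovery rate; the sources used here name no aligner, caller or threshold value. Each deposited list gives a signal per peak, the authors' own value on a scale of that list, and the −log10 of a q-value, which was 2.98 at all optimal peaks and was left unused in ranking. The deposited summit offsets, counted in bases, gave positions. No row was dropped, and 16 optimal rows repeat the interval of another. Lists on ce10 were not used.

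Peaks were ranked by signal within a list. A peak's rank in a replicate is that of the strongest replicate peak it overlaps by 1 bp or more. Genes, 5′ ends and features came from Ensembl release 115 (WBcel235, the ce11 sequence), over 6 nuclear chromosomes, and sequences from RefSeq's copy of that assembly. Distances are to the nearest 5′ end of the gene unless another is named. The members, lists, motifs and named genes were chosen by known role with earlier results of these data known, and lin-22, vrp-1, T28F12.1, C38D4.7 and cyk-7 are named after their values were seen. No test was made: counts are set beside all nuclear protein-coding genes or optimal peaks. Depth is unknown, so intervals (95%, Clopper-Pearson) cover counting over genes or peaks only. The window step was tested on simulated peaks just inside or outside a window edge, and the overlap step on exact copies. Both recovered all that were planted, and partial overlaps were not tested. Alternatives covered the window, the overlap rule, the length of lists and each replicate alone. Python 3.11.15, pandas 2.3.3, numpy 2.4.6, scipy 1.17.1 and matplotlib 3.10.9 were used.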

Additional observations from a re-analysis of the deposited data

How the results depend on the processing

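Of 55 values recomputed under an alternative, 11 moved and 44 did not, by the limits used: 1.5 times for a count, 1 SD over the 4 peaks for the rank fold, and the 95% exact interval for the share in both top lists. With the stronger 1526 optimal peaks, 1 of the 10 genes (ceh-20) held an optimal summit, as 1 summit in all and 1 gene within 1 kb of a 5′ end, 100% of those peaks were in both top lists, and 9 of the 39 related genes held one; unc-62, at rank 1536, fell just outside. Within 500 bp of a 5′ end the count was 0. With optimal peaks in both top lists only, an alternative chosen after seeing the data, 2 genes remained, unc-62 and ceh-20. With top lists of 6106 peaks, 100% of the 4 optimal peaks were in both. When a replicate summit had to lie within 100 bp, the share in both top lists was 25% against 50%, inside that wide interval, with ceh-20 alone left, and the median fold between ranks was 2.97, since the replicate 1 summits of ceh-13 and unc-62 lay 118 and 109 bp away. The strongest replicate peaks had summits within 100 bp of each other at 1 of the 10 genes, also chosen after seeing the data. With either replicate left out, 2 to 3 genes had a summit within 1 kb of a 5′ end and 3 to 4 in the window. A window from 10 kb upstream gave 5 genes, adding php-3 through the nob-1 peak. The gene counts under these alternatives are given without the share over all genes, so they are not read against a background. Under the 100 bp rule, 71.2% of all nuclear optimal peaks were in both top lists. No paired analysis was possible because there is 1 group. Depth is unknown and no list from an untagged strain was used here, so what such a strain would show at these sites was not measured.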
